A study of Homo sapiens with 12 samples.

Results

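The genes described here were the transcription factor NRF2 (gene symbol NFE2L2), its inhibitor KEAP1 and 8 genes widely used as readouts of NRF2 activity: NQO1, TXNRD1, SRXN1, GCLC, GCLM, OSGIN1, TRIM16 and TRIM16L. They were chosen by name and matched to the gene symbols of the deposited count table, where all 10 of the 10 symbols were found among 58735 genes, and all 10 passed the filter on low counts that left 17290 genes for testing. RNA was measured by paired-end sequencing in U2OS cells, an osteosarcoma cell line, after 24 h with 10 µM TH10785, with 10 µM PNKP1i, with both compounds at 10 µM each, or with the solvent DMSO. Each of the 4 groups held 3 libraries, 12 in all. TH10785 is the small-molecule activator of the DNA glycosylase OGG1 named in the labels, which the series record also spells TH10587. PNKP1i is given by name only. All groups were of the same line, so the data describe cultured tumour cells and no other cell type, and the labels do not say whether libraries of a group came from separate cultures. The p-values therefore measure the spread between these libraries, which may be technical.

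NRF2 is made continuously, and in unstressed cells KEAP1 binds it and hands it to a CUL3 ubiquitin ligase for degradation. When electrophiles or oxidants modify cysteines of KEAP1, NRF2 escapes, enters the nucleus and, with a small MAF partner, binds antioxidant response elements (AREs) near genes for glutathione synthesis, thioredoxin reduction and quinone detoxification. Because this control acts on the protein, the RNA of NFE2L2 is not a measure of NRF2 activity, and the RNA of its targets is the usual readout.

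The stretches of sequence below show where the letters of an ARE core, TGACNNNGC, stood close to the start of a member. RefSeq windows of GRCh38.p14, running from 250 bases before to 50 after a start, were searched on both strands. The table held 12 windows for 9 of the 10 genes, and TRIM16L had none. The letters were found at 6 places in 4 windows, those of GCLM, TXNRD1 (2 starts) and KEAP1. For comparison, 13.35% of all 35116 windows of that length held at least 1 match. Each line gives 30 bases 5′ to 3′ on the strand of the gene, with the match in capitals. Where the capitals begin with GC, the motif reads on the other strand.

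GCLM, chr1:93909445-93909474, minus strand: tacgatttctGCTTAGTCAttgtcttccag
KEAP1, chr19:10502783-10502812, minus strand: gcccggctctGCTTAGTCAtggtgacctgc
KEAP1, chr19:10502806-10502835, minus strand: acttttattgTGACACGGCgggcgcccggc
TXNRD1, chr12:104286920-104286949, plus strand: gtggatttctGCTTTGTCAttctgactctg
TXNRD1, chr12:104215670-104215699, plus strand: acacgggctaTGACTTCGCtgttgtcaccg
TXNRD1, chr12:104215761-104215790, plus strand: gcgtccttcgGCTCCGTCAgttcccacagg

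The 9 matched letters were identical in GCLM and in the first KEAP1 line, GCTTAGTCA. The windows of NFE2L2, NQO1, SRXN1, GCLC, OSGIN1 and TRIM16 did not hold these letters, which says only that they are not in those 300 bases. The AP-1 letters TGANTCA, searched on both strands, overlap the ARE core in some sequences. They occurred in 7.71% of all windows, and OSGIN1 was the only member with a match.

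Library depth was 16225339 to 21546369 counts. Levels are in CPM, a gene's count relative to the total of its library after scaling by TMM factors, and changes are log2 fold changes from edgeR's quasi-likelihood test, called at an adjusted p under 0.05 over the 17290 genes. Within its group the library of TH10785 replicate 3 stood apart. Its counts differed from the other TH10785 libraries by a chi-square of 36.5 and 30.0 per gene, against 3.02 between those. Pairs of libraries in the other groups were at 17.0 to 33.7 with both compounds, 9.58 to 25.9 in DMSO and 4.37 to 10.2 with PNKP1i. In TH10785 replicate 3 the 2336 genes of under 40% GC were lower than in DMSO by a median log2 of -0.55, while the other TH10785 libraries were at 0.19 and 0.09. The libraries with both compounds were at 0.42 to 0.73 for these genes and at -0.35 to -0.32 for the 2570 genes of over 60% GC. Those with PNKP1i were at -0.25 to -0.07 and at -0.02 to 0.08 for the same 2 sets. Results are therefore also given with offsets that remove each library's trend over GC content and length, and without TH10785 replicate 3. This was done for the 10 members and the named genes of the pathway lists below, where it ends a call or turns a direction. Of 6 mesenchymal and osteoblast genes, all were detected in 12 libraries, with COL1A2 near 0 (at most 0.538 CPM). Their summed level was 3878 to 4539 CPM with TH10785, 4260 to 4383 CPM with PNKP1i and 2084 to 2574 CPM with both compounds, against 4071 to 4855 CPM in DMSO, and the part of this shift in the results below was not tested. Markers of other cell types were low: 4 epithelial genes summed to at most 8.95 CPM with TH10785, 9.42 CPM with PNKP1i and 7.19 CPM with both compounds, against 9.45 to 9.90 CPM in DMSO. The 3 endothelial genes PECAM1, VWF and CDH5 summed to 4.66 to 7.88 CPM with TH10785, 4.17 to 5.49 CPM with PNKP1i and 1.69 to 2.99 CPM with both compounds, against 4.39 to 4.83 CPM in DMSO. Both sums were thus also lower with both compounds than in DMSO, and their part in the results was not tested. The blood genes summed to at most 0.366 CPM in a library, with CD3E at 0 in 12 libraries, HBB in 11 and PTPRC in 5. In bulk RNA, fewer cells of a type and less RNA per cell cannot be told apart.

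Compared per kilobase of exon in DMSO, the quinone reductase NQO1 had the highest level of the 10 genes at 58.2 ± 10.3 CPM per kilobase (SD, n = 3). TXNRD1 at 42.0 ± 2.21 and KEAP1 at 38.6 ± 2.08 CPM per kilobase followed, with libraries that overlapped each other. TRIM16L, OSGIN1, TRIM16, SRXN1, GCLM, GCLC and NFE2L2 came next in that order, from 32.0 ± 3.62 for TRIM16L to 2.97 ± 0.438 CPM per kilobase for NFE2L2, and no neighbours among these 7 overlapped in DMSO. With both compounds the order began differently, with TXNRD1 at 121 ± 8.97 and NQO1 at 73.7 ± 15.5 CPM per kilobase. The length used was that of all annotated exons of a gene merged: 6708 bases for TXNRD1, 3254 for NQO1 and 8646 for GCLC. Their longest transcripts have 4277, 2912 and 3813 bases, and the order of the genes depends on which length is used. The plot of levels by library shows the same 10 genes in CPM, without the division by length.

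**Figure D1:**
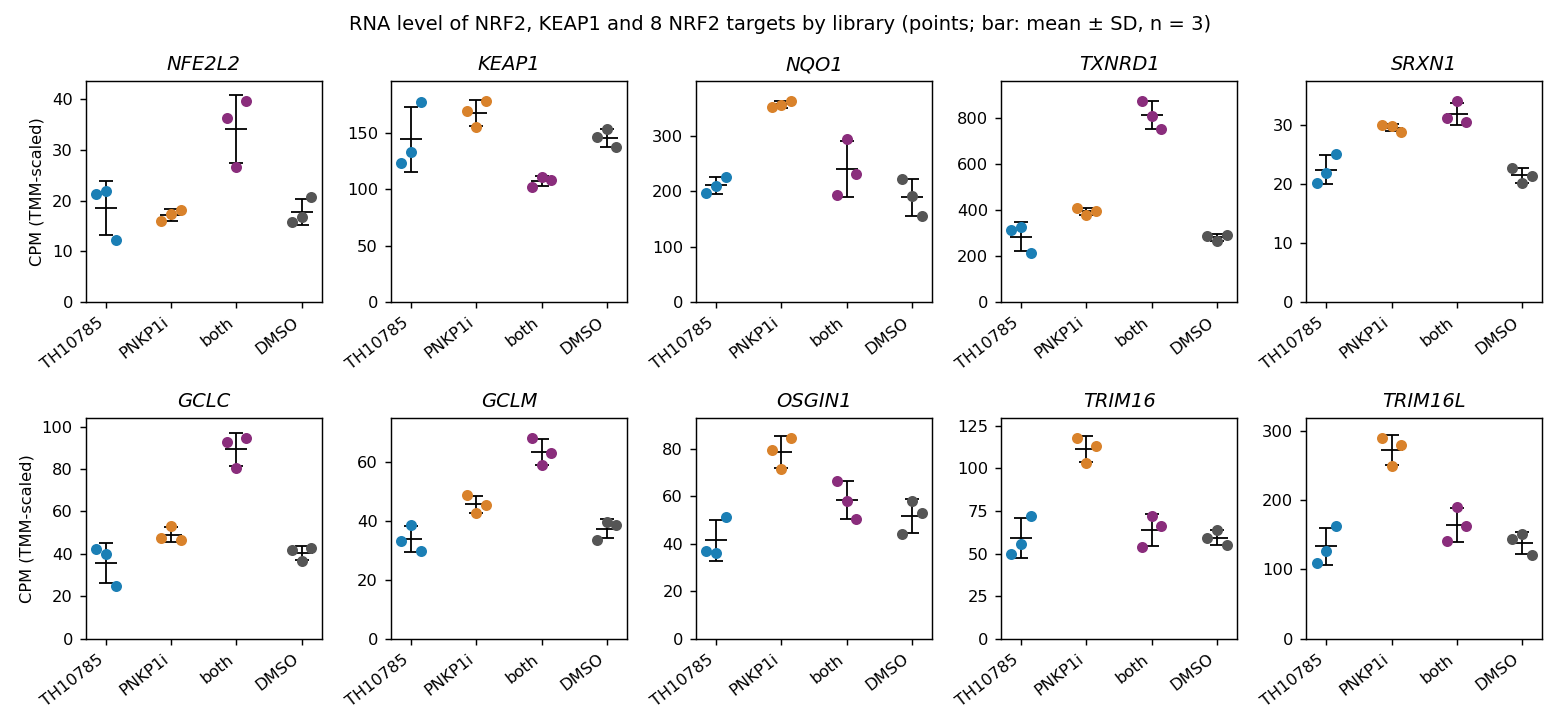
RNA level (CPM, linear axis from 0) of each gene in the 12 libraries, by group; points are libraries and black bars the mean ± SD of 3. NQO1, OSGIN1, TRIM16 and TRIM16L are highest with PNKP1i alone, while NFE2L2, TXNRD1, GCLC and GCLM are highest with both compounds.

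NFE2L2 (ENSG00000116044, chr2:177227595-177392697, minus strand, GENCODE 29 on GRCh38) encodes NRF2. Its level was 21.3, 21.9 and 12.3 CPM with TH10785, 15.9, 17.3 and 18.2 CPM with PNKP1i, and 36.2, 26.7 and 39.6 CPM with both compounds, against 15.7, 16.8 and 20.7 CPM in DMSO. The 3 libraries with both compounds lay above all other 9, and neither single agent was separate from DMSO. With both compounds NFE2L2 rose by a log2 of 0.94 over DMSO (SE 0.20, 1.92-fold, adjusted p = 0.00175, edgeR's quasi-likelihood test). Against DMSO the change was 0.06 (95% interval -0.37 to 0.49) with TH10785 and -0.05 (-0.48 to 0.38) with PNKP1i, neither of which passed the test.

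KEAP1 (ENSG00000079999, chr19:10486120-10503741, minus strand) encodes the adaptor that marks NRF2 for degradation. It stood at 123, 133 and 177 CPM with TH10785, at 169, 155 and 178 CPM with PNKP1i and at 102, 111 and 108 CPM with both compounds, against 146, 153 and 137 CPM in DMSO. The libraries with both compounds were the lowest 3 of the 12. KEAP1 fell by 0.44 on the log2 scale with both compounds against DMSO (SE 0.13, adjusted p = 0.0109). KEAP1 is GC-rich, at 60.3% of its longest transcript, and with the GC and length offsets the change was -0.09 (adjusted p = 0.441), so the call did not hold there. Within a library the ratio of NFE2L2 to KEAP1 CPM was 0.241 to 0.367 with both compounds, above the 0.108 to 0.151 of DMSO, the 0.0941 to 0.112 of PNKP1i and the 0.0694 to 0.173 of TH10785. This ratio was taken without the offsets. GC content differs between the 2 genes, at 45.6% for NFE2L2 and 60.3% for KEAP1, and the part of the GC trend in the ratio was not tested.

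TH10785 alone was not accompanied by a called change in any of the 10 genes. In this comparison 97 genes in all were called (0.561% of those tested), and of the 10 members 0 were called by edgeR's quasi-likelihood test, 0 by DESeq2, and 0 had an unadjusted p under 0.05, as 14.1% of all genes did. Their median log2 change was 0.00, beside -0.02 over all genes tested, and the libraries of 0 members were separate from DMSO, where 9.64% of all genes tested were separate and higher and 10.0% separate and lower. OSGIN1 had the lowest p. Its level was 36.9, 36.0 and 51.4 CPM with TH10785, against 44.0, 57.9 and 53.1 CPM in DMSO, a log2 change of -0.32 (95% interval -0.64 to 0.00, adjusted p = 0.360). Without TH10785 replicate 3 the OSGIN1 change was -0.49 (adjusted p = 0.0906), and 0 of 10 members were called. The widest interval among the targets, that of GCLC, ran from -0.53 to 0.15 on the log2 scale, and the highest upper bound was 0.47, for NQO1, so larger rises were outside the intervals of this fit. Other settings move these bounds: the NQO1 change was 0.15 here and 0.03 to 0.28 over the 22 settings of the analysis.

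With PNKP1i alone NQO1, TRIM16 and TRIM16L were called higher, and the other 5 targets did not pass the test. Each of the 8 targets had a positive log2 change and 3 libraries above all 3 of DMSO, where 11.7% of all genes tested were separate in that direction. The inhibitor KEAP1 was separate in that direction too, with a log2 change of 0.21 that was not called. Of the 10 members, 3 were called, all higher, beside 34 genes in all (0.197% of those tested, with 0.174% called higher). The median log2 change of the 8 targets was 0.55, beside -0.02 over all genes tested.

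NQO1 (ENSG00000181019, chr16:69706996-69726951, minus strand) encodes the enzyme that reduces quinones with NAD(P)H. It was at 197, 209 and 226 CPM with TH10785, 352, 356 and 363 CPM with PNKP1i and 194, 294 and 232 CPM with both compounds, against 222, 192 and 155 CPM in DMSO. The PNKP1i libraries were above the other 9 and close together. NQO1 rose by 0.91 with PNKP1i over DMSO (SE 0.15, 1.88-fold, adjusted p = 0.0128), while with both compounds the change over DMSO was 0.34 (95% interval 0.03 to 0.65, adjusted p = 0.0760). The change with both compounds passed the test with no low-count filter, without DMSO replicate 1, without TH10785 replicate 3 or without replicate 1 of the combination.

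TRIM16L (ENSG00000108448, chr17:18697998-18736118, plus strand), a shorter relative of TRIM16, was likewise highest with PNKP1i. Its level was 110, 127 and 163 CPM with TH10785, 290, 249 and 279 CPM with PNKP1i, and 141, 190 and 163 CPM with both compounds, against 144, 151 and 121 CPM in DMSO. With PNKP1i it rose by 0.98 (SE 0.15, 1.97-fold, adjusted p = 0.00809). TRIM16 (ENSG00000221926, chr17:15627960-15684311, minus strand), a tripartite-motif protein linked to autophagy and protein ubiquitination, ranged from 103 to 118 CPM with PNKP1i and from 49.6 to 72.2 CPM in the other 9 libraries, and rose by 0.91 (SE 0.14, adjusted p = 0.0102). The genes are near-copies in part: 20.7% of the 100-base windows of the longest TRIM16L transcript occur in TRIM16 transcripts, and 8.0% of the 150-base windows do, so their counts are not fully independent.

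The other 5 targets did not pass the test with PNKP1i over DMSO. OSGIN1 (ENSG00000140961, chr16:83948282-83966332, plus strand), a growth inhibitor induced by oxidative stress, had 79.6, 71.5 and 84.6 CPM with PNKP1i and a log2 change of 0.60 over DMSO (adjusted p = 0.169). TXNRD1 was at 0.49, SRXN1 at 0.46, GCLM at 0.29 and GCLC at 0.27, with adjusted p from 0.244 to 0.516. The calls in this comparison were few and changed when single libraries were left out. Without DMSO replicate 3, PNKP1i replicate 1 or PNKP1i replicate 3, 0 of 10 members were called. In these settings 8, 6 and 9 genes in all were called. NQO1 was not called without DMSO replicate 2 either, nor TRIM16 without DMSO replicate 1. Without TH10785 replicate 3 a total of 6 were called, beside 297 genes in all, with TXNRD1, SRXN1 and OSGIN1 added to the 3. Across the 22 settings of the analysis the log2 change stayed at 0.79 to 1.04 for NQO1, 0.86 to 0.97 for TRIM16 and 0.89 to 1.04 for TRIM16L.

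**Figure D2:**
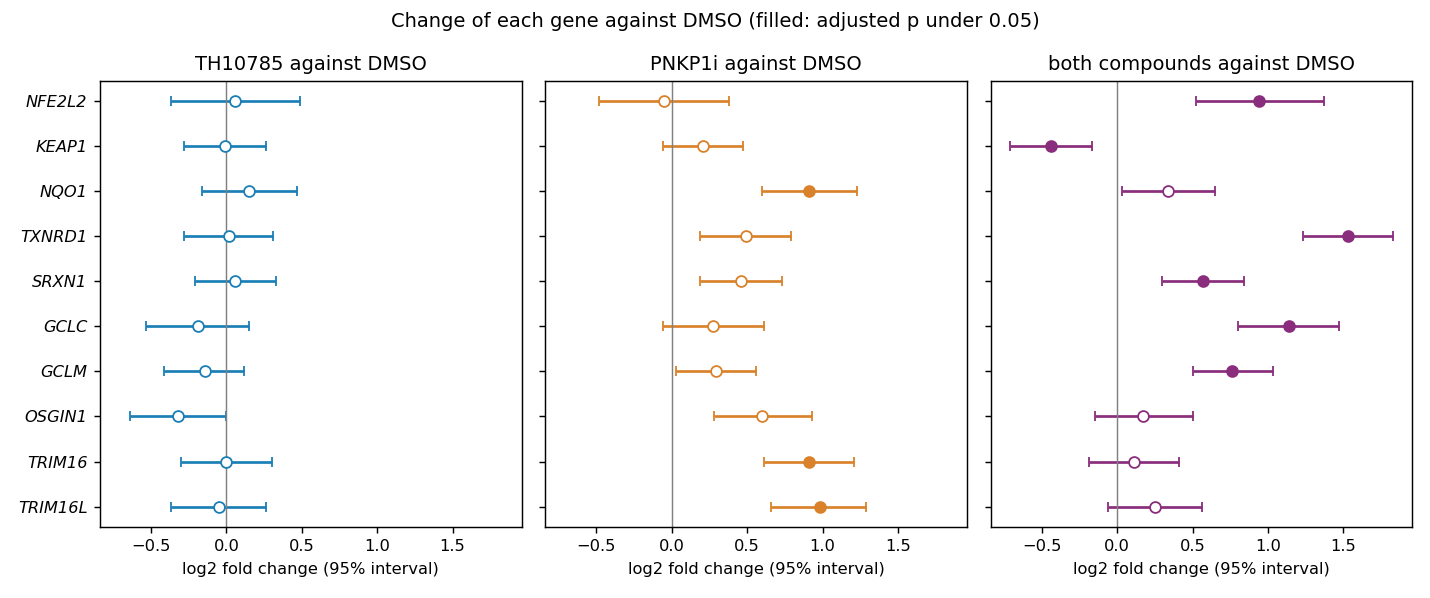
Log2 fold change over DMSO (points) with its 95% interval (bars) for each gene in the 3 treated groups, filled where the adjusted p is under 0.05; the 3 panels share the DMSO libraries. With TH10785 every interval reaches 0, with PNKP1i NQO1, TRIM16 and TRIM16L are filled, and with both compounds TXNRD1, GCLC, NFE2L2, GCLM and SRXN1 lie above 0 and KEAP1 below.

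With both compounds over DMSO, TXNRD1, GCLC, NFE2L2, GCLM and SRXN1 were called higher and KEAP1 lower. Of the 10 members 5 were called higher and 1 lower, in a comparison that called 41.0% of all genes tested, 21.3% of them higher and 19.7% lower. The median log2 change of the 8 targets was 0.45, beside 0.04 over all genes tested. The libraries of 5 members were all above those of DMSO and those of 1 all below, as were 28.4% and 25.2% of all genes tested. The comparisons of the 3 treatments with DMSO share the same control libraries.

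TXNRD1 (ENSG00000198431, chr12:104215779-104350305, plus strand) encodes thioredoxin reductase, which keeps cytosolic thioredoxin reduced. Its level was 315, 326 and 214 CPM with TH10785, 409, 380 and 397 CPM with PNKP1i and 875, 810 and 754 CPM with both compounds, against 286, 265 and 293 CPM in DMSO. The groups with both compounds, with PNKP1i and DMSO did not overlap, in that order from high to low. TXNRD1 rose by 1.53 with both compounds over DMSO (SE 0.14, 2.89-fold, adjusted p = 2.35e-06), the largest change among the 10 genes. The 250 bases before its first RefSeq start, chr12:104215529-104215778, are printed with the ARE core letters in capitals. A second match there begins 8 bases before the start, runs across the end of this stretch and is among the lines above.

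TXNRD1 upstream: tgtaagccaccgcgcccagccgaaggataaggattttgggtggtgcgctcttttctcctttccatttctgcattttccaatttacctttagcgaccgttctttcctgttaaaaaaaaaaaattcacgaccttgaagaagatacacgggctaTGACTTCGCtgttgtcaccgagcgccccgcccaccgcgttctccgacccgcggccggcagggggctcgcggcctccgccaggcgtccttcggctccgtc

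GCLC (ENSG00000001084, chr6:53497341-53616970, minus strand) encodes the catalytic subunit of glutamate-cysteine ligase, the first enzyme of glutathione synthesis. It was at 42.2, 40.0 and 24.7 CPM with TH10785, 47.5, 53.1 and 46.7 CPM with PNKP1i and 92.5, 80.4 and 94.7 CPM with both compounds, against 41.9, 36.8 and 43.0 CPM in DMSO. Every library with both compounds exceeded the other 9. The rise over DMSO was 1.14 (SE 0.16, 2.20-fold, adjusted p = 7.02e-05).

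GCLM (ENSG00000023909, chr1:93885205-93909456, minus strand) encodes the modifier subunit of the same enzyme. Its libraries held 33.2, 38.6 and 29.7 CPM with TH10785, 48.8, 42.9 and 45.5 CPM with PNKP1i and 68.3, 59.2 and 63.0 CPM with both compounds, against 33.7, 39.6 and 38.8 CPM in DMSO. It rose by 0.76 over DMSO with both compounds (SE 0.13, adjusted p = 0.000217). GCLM has the lowest GC content of the 10 genes, 37.3%, and also the greatest length by longest transcript, 4857 bases. With the GC and length offsets its change was 0.13 (adjusted p = 0.526). The 2 subunits thus differed in how far their change depended on that correction, since GCLC remained at 0.93 (adjusted p = 4.11e-06).

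SRXN1 (ENSG00000271303, chr20:646615-653370, minus strand) encodes sulfiredoxin, which restores over-oxidised peroxiredoxins. Its level was 20.2, 21.9 and 25.1 CPM with TH10785, 29.9, 29.8 and 28.8 CPM with PNKP1i and 31.1, 34.0 and 30.4 CPM with both compounds, against 22.7, 20.2 and 21.4 CPM in DMSO. All 6 libraries that had received PNKP1i, alone or with TH10785, were above the 6 that had not. With both compounds SRXN1 rose by 0.57 over DMSO (SE 0.13, adjusted p = 0.00227). SRXN1 shares 85.0% of its exon bases with the annotated gene AL121758.1 on the same strand, which held 0 to 8 counts per library. No source used here says how shared reads were counted.

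The remaining 4 targets were not called with both compounds over DMSO. NQO1 changed by 0.34, TRIM16L by 0.25 (adjusted p = 0.188), OSGIN1 by 0.17 (adjusted p = 0.380) and TRIM16 by 0.11 (adjusted p = 0.568), and the libraries of each overlapped those of DMSO. With the GC and length offsets OSGIN1, of 63.4% GC, was at 0.57 (adjusted p = 0.000851) and TRIM16L at 0.36 (adjusted p = 0.0348), so both passed there. NFE2L2, TXNRD1, SRXN1 and GCLC were called higher in all 22 settings.

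The targets separated when the combination was set against PNKP1i alone. Of the 10 members 4 were called higher and 5 lower, where 24.4% of all genes tested were called higher and 21.5% lower (46.0% in all). TXNRD1 was higher by 1.04 (SE 0.14, adjusted p = 9.37e-05), NFE2L2 by 0.99, GCLC by 0.86 and GCLM by 0.47. TRIM16 fell by 0.80 on the log2 scale (SE 0.14, adjusted p = 0.000451), TRIM16L by 0.73, KEAP1 by 0.65, NQO1 by 0.57 and OSGIN1 by 0.43. SRXN1 differed by 0.11 (95% interval -0.16 to 0.37) and was not called. OSGIN1 was not called without PNKP1i replicate 1 or 3 or without replicate 2 or 3 of the combination. Within a library the ratio of TXNRD1 to NQO1 CPM was 4.51, 2.76 and 3.25 with both compounds, 1.16, 1.07 and 1.09 with PNKP1i, 1.60, 1.56 and 0.946 with TH10785, and 1.29, 1.38 and 1.89 in DMSO. This ratio does not depend on how libraries are scaled, and its 3 values with both compounds were the highest of the 12.

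**Figure D3:**
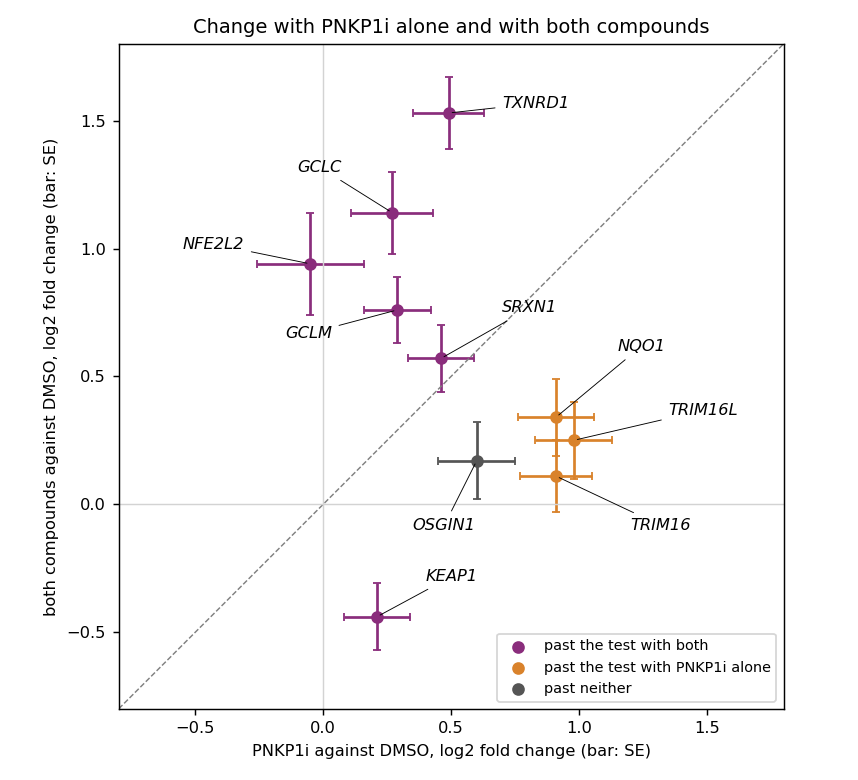
Log2 fold change over DMSO with both compounds (vertical axis) against that with PNKP1i alone (horizontal axis) for each gene, with SE bars and a dashed line of equal change; both axes share the DMSO libraries. TXNRD1, GCLC, NFE2L2 and GCLM lie above the line, SRXN1 near it, and NQO1, TRIM16, TRIM16L, OSGIN1 and KEAP1 below it.

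Whether the effect of the combination differed from the sum of the effects of the single agents was tested as an interaction on the log2 scale. In this test 30.6% of all genes tested were called, 16.5% above the sum and 14.1% below it, and of the 10 members 4 were called above the sum and 4 below it. GCLC exceeded the sum by 1.05 (SE 0.23, adjusted p = 0.00644), TXNRD1 by 1.02 (SE 0.20, adjusted p = 0.00561), NFE2L2 by 0.93 and GCLM by 0.62. Below the sum were TRIM16 at -0.80 (SE 0.20, adjusted p = 0.0102), NQO1 at -0.73, TRIM16L at -0.68 and KEAP1 at -0.64. SRXN1 at 0.05 (95% interval -0.33 to 0.42) and OSGIN1 at -0.11 (-0.57 to 0.34) were not called. Without DMSO replicate 3, 5 of the 8 calls were made, and those of NFE2L2, NQO1 and TRIM16L were not. NFE2L2 was also not called without PNKP1i replicate 1 or without replicate 3 of the combination, nor TRIM16L without PNKP1i replicate 1 or 3 or without replicate 1 of the combination. TXNRD1, GCLC and TRIM16 passed in all 21 settings in which this test was run.

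Part of this pattern changed with the offsets, which take GC content and transcript length together and do not separate them. With the GC and length offsets, GCLM was 0.36 lower on the log2 scale with both compounds than with PNKP1i (log2 change -0.36, adjusted p = 0.0678) and OSGIN1 differed by 0.04 (adjusted p = 0.817), so that both turned direction and neither was called, and KEAP1 was at -0.22 (adjusted p = 0.0525). TXNRD1 at 0.79, GCLC at 0.57, NFE2L2 at 0.84, NQO1 at -0.69, TRIM16 at -0.59 and TRIM16L at -0.59 were called with their directions as before, and SRXN1 at 0.35 was called as well (adjusted p = 0.0128). In the interaction GCLM was at -0.37 and OSGIN1 at 0.39 with the offsets, both turned and not called, and KEAP1 at -0.19 was not called. The offsets also remove any treatment effect that itself follows GC content or length, and the part of either was not tested.

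**Figure D4:**
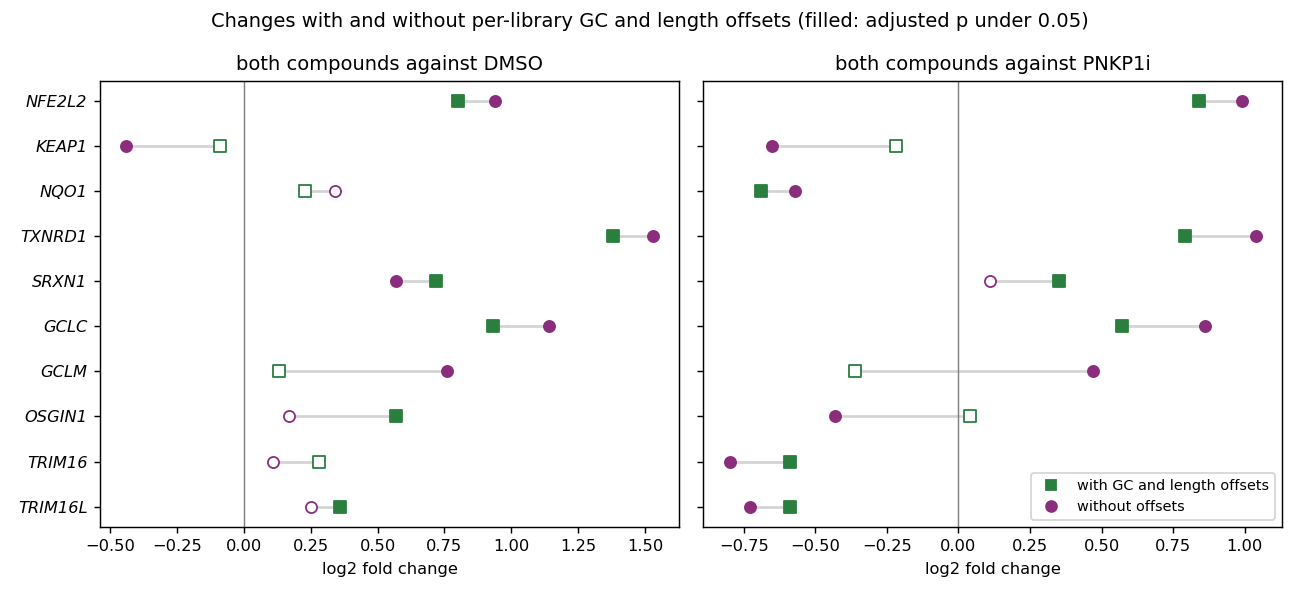
Log2 fold change of each gene with (green squares) and without (purple circles) per-library GC and length offsets, for both compounds against DMSO (left) and against PNKP1i (right), filled where the adjusted p is under 0.05. KEAP1, GCLM and OSGIN1 move most, and TXNRD1, GCLC, NFE2L2, NQO1, TRIM16 and TRIM16L keep their side of 0 in both panels.

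Against TH10785 alone, the combination raised 6 members and lowered 1, where 42.3% of all genes tested were called, 22.7% higher and 19.7% lower. TXNRD1 was higher by 1.51, GCLC by 1.33, GCLM by 0.91, NFE2L2 by 0.88, SRXN1 by 0.51 and OSGIN1 by 0.49, and KEAP1 fell by 0.44 on the log2 scale. KEAP1 was at -0.26 without TH10785 replicate 3 (adjusted p = 0.0523) and was not called. With only these 2 groups fitted it was not called either (adjusted p = 0.0570), nor with the offsets (-0.06), where GCLM at 0.12 was not called. TRIM16L, at 0.30 over TH10785, passed without TH10785 replicate 3 (0.48, adjusted p = 0.0104) and with the offsets (0.41, adjusted p = 0.0178). OSGIN1 was not called without TH10785 replicate 1, without TH10785 replicate 2 or without replicate 1 of the combination, nor with only these 2 groups fitted (adjusted p = 0.0579), and its libraries overlapped. PNKP1i set directly against TH10785 called 4 members, all higher, beside 156 genes in all (0.902% of those tested, with 0.278% called higher). TRIM16L was higher by 1.03 (SE 0.15, adjusted p = 0.00132), OSGIN1 by 0.92 (adjusted p = 0.00455), TRIM16 by 0.91 (adjusted p = 0.00285) and NQO1 by 0.76 (adjusted p = 0.0169). Leaving out any 1 of the 3 PNKP1i libraries, TH10785 replicate 1 or TH10785 replicate 2 ended the call of NQO1. Without TH10785 replicate 3 a total of 6 members were called, beside 552 genes in all, with KEAP1 at 0.39 and SRXN1 at 0.49 added.

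The wider NRF2 pathway was described with 65 genes in 5 lists, of which 61 were tested. GSTM1, GSTA1, ALDH1A1 and CES1 did not pass the filter on low counts. With TH10785 alone 1 of the 61 was called, where 0.561% of all genes tested were. It was the NADPH-producing isocitrate dehydrogenase IDH1, higher by 0.94 (adjusted p = 0.00123). With PNKP1i alone 2 of the 61 were called, beside 0.197% of all genes tested, and both were of the haem and iron list: HMOX1, the inducible haem oxygenase, rose by 0.96 (adjusted p = 0.0173), and FTL, the ferritin light chain, by 0.85 (adjusted p = 0.0353). Leaving out any 1 of the 3 DMSO libraries, PNKP1i replicate 1 or PNKP1i replicate 3 ended both calls, and FTL was not called without PNKP1i replicate 2 or TH10785 replicate 2 either.

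With both compounds over DMSO, 8 of the 18 tested genes of glutathione and thioredoxin metabolism were called higher and 2 lower, where 21.3% of all genes tested were called higher and 19.7% lower. The median was 0.19, beside 0.04 over all genes tested. SLC7A11, the cystine transporter that feeds glutathione synthesis, averaged 92.6 ± 25.2 CPM with both compounds and 17.0 ± 2.39 CPM in DMSO (SD, n = 3 each). It rose by 2.45 (SE 0.22, adjusted p = 1.90e-06). GLRX, a glutaredoxin, rose by 1.96 (adjusted p = 2.00e-06), while the glutathione transferase gene GSTM4 fell by 1.25 and the exporter gene ABCC1 by 0.50 on the log2 scale. With the offsets 34.1% of 17282 genes were called in this comparison, 2899 higher and 2988 lower. Of the 18, 7 were then higher and 4 lower, SLC7A11 was at 1.75 and ABCC1 was not called. TXN and ABCC2 lost their calls as well, GSS was newly called higher, and PRDX1, PRDX6 and GSTA4 were newly called lower.

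Among 17 regulators and partners of NRF2, 3 were called higher and 6 lower with both compounds over DMSO, beside the same 21.3% and 19.7% of all genes tested, and the median was 0.02. The small MAF gene MAFF, which encodes a DNA-binding partner, rose by 1.40 (adjusted p = 0.000124). MAFK, another small MAF gene, fell by 0.54 on the log2 scale (adjusted p = 0.00220) and was not called with the offsets (-0.09). BACH1, a repressor that competes for the same elements, rose by 1.12 (adjusted p = 0.00242), and SQSTM1, encoding the p62 protein that sequesters KEAP1, by 0.91 (adjusted p = 0.000337). DPP3, another KEAP1-binding protein, fell by 0.67 on the log2 scale (adjusted p = 0.00123). With the offsets 5 were higher and 4 lower, where 2899 of 17282 genes were called higher and 2988 lower. These were partly other genes. PGAM5, CREBBP and EP300, called lower without the offsets, were not called with them. CUL3 at -0.37 and RBX1 at -0.40 were newly called lower, and NFE2L1 at 0.52 and MAFG at 0.51 newly higher. Without the offsets the mean CPM was higher with both compounds than in DMSO, at 48.2 against 40.9 for CUL3 and 51.7 against 50.9 for RBX1. With the offsets BACH1 was at 0.53 and DPP3 at -0.33. MAFF, BACH1, SQSTM1 and DPP3 were called in all 22 settings.

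The 11 NADPH and aldo-keto reductase genes included 1 called higher and 5 lower with both compounds over DMSO, where 21.3% of all genes tested were higher and 19.7% lower, with a median of -0.46. IDH1 rose by 1.07 (adjusted p = 2.53e-05). TKT, which encodes transketolase of the pentose phosphate pathway, fell by 0.67 on the log2 scale. With the offsets IDH1 was at 0.70 and TKT at -0.36, both called. Of the 11, 1 was then higher and 7 lower, where 2899 of 17282 genes were called higher and 2988 lower. Set against PNKP1i alone, the combination had 1 of the 11 called higher and 8 lower, beside 24.4% and 21.5% of all genes tested. AKR1C1, a carbonyl reductase gene named after its values were seen, was at 3.73 ± 1.08 CPM with TH10785, 15.8 ± 0.889 CPM with PNKP1i and 3.25 ± 1.56 CPM with both compounds, against 6.65 ± 1.31 CPM in DMSO (SD, n = 3 each). It fell by 2.27 on the log2 scale with both compounds against PNKP1i (adjusted p = 7.20e-05). The difference between PNKP1i and DMSO was not called for AKR1C1, and it passed in 6 of the 22 settings. AKR1C1 has close relatives in AKR1C2 and AKR1C3, so reads between them may have been split.

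Of 7 haem and iron genes, 3 were called higher with both compounds over DMSO and the other 4 were not called, with a median of 0.38, where 21.3% of all genes tested were called higher. With the offsets 5 of the 7 were higher, where 2899 of 17282 genes were called higher. HMOX1 rose by 1.17 (adjusted p = 6.69e-05), FTL by 0.48 and the ferritin heavy chain gene FTH1 by 0.43. FTL was not called without DMSO replicate 2, without DMSO replicate 3 or without replicate 2 of the combination, and FTH1 not without DMSO replicate 1, without DMSO replicate 2 or without replicate 1 of the combination. Ferritin genes have processed copies elsewhere in the genome with which reads can be shared. Of 8 detoxification genes, 1 was called higher and 3 lower, beside 21.3% and 19.7% of all genes tested. NQO2, a quinone reductase related to NQO1, rose by 0.49 (adjusted p = 0.00817), and the epoxide hydrolase gene EPHX1 fell by 0.88 on the log2 scale (adjusted p = 0.000120). The aldehyde dehydrogenase gene ALDH3A1 fell by 0.73 (adjusted p = 0.0253) at a low level, 1.29 ± 0.155 CPM with both compounds and 2.15 ± 0.268 CPM in DMSO. It was not called without DMSO replicate 1 or without replicate 2 or 3 of the combination, nor with no low-count filter or with the offsets (-0.45).

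**Figure D5:**
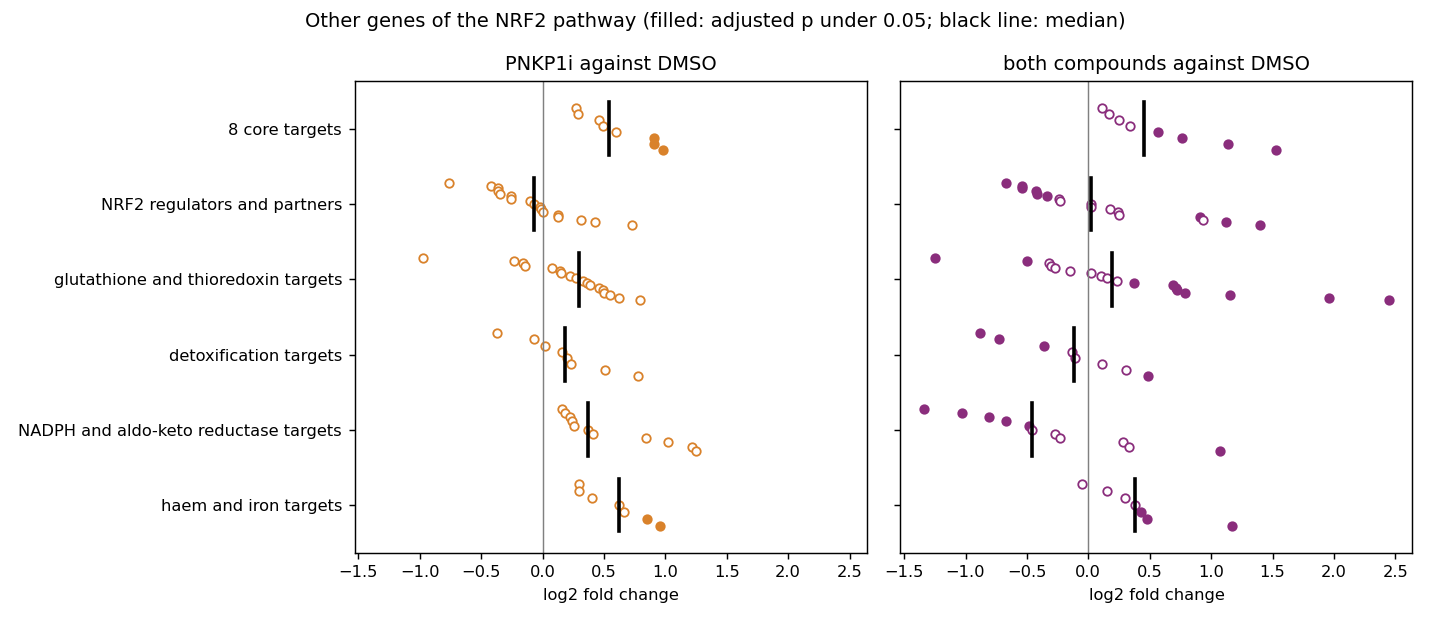
Log2 fold change over DMSO of the 8 core targets and of 5 lists of other NRF2 pathway genes, with PNKP1i (left) and both compounds (right); points are genes, filled where the adjusted p is under 0.05, and black lines are list medians. The core targets lie right of 0 in both panels, while the median of the NADPH and aldo-keto reductase list is 0.37 with PNKP1i and -0.46 with both compounds.

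Among 12569 genes of at least moderate level (mean log2 CPM of at least 1), the likeness to NQO1 was measured as the distance between the 3 log2 changes over DMSO. These were means over 3 libraries a group that share their DMSO libraries, and the list is a description. The nearest was DUSP2, a dual-specificity phosphatase gene, at a distance of 0.15, with FTL also at 0.15. PHGDH, the first enzyme of serine synthesis, was at 0.21, TRIM16L at 0.23, ASS1 at 0.25 and the zinc transporter gene SLC30A2 at 0.26. PHGDH, for example, changed by 0.04 with TH10785, 0.89 with PNKP1i and 0.17 with both compounds, beside 0.15, 0.91 and 0.34 for NQO1. Nearest to the median of the 8 targets were ALDH2, a mitochondrial aldehyde dehydrogenase gene, at 0.07, then LOC102723996, GBAP1, SLC25A45, ALG1L and FTH1 at 0.08 to 0.13. Between the members themselves, the shortest distance was 0.16, between TRIM16 and TRIM16L, followed by 0.23 between NQO1 and TRIM16L and 0.28 between NQO1 and TRIM16. The longest was 1.99, between KEAP1 and TXNRD1.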

How the data were processed

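Both tables of the whole series were used. The raw count table holds, as deposited, whole-number read counts per gene for 12 libraries. The second, used in 1 alternative only, holds the authors' deposited normalized signal, in which each value, by comparison of both tables, is the raw count over a constant per library. Per the submitters' processing notes, the build was GRCh38 and the tools included HTSeq 0.6.1, HISAT2 2.0.5 and, in version 1.30.1, DESeq2. The strand setting and annotation are not given in the sources used here, so reads of overlapping or antisense genes may not be separable. Libraries were made from total RNA with a NEBNext Ultra RNA kit, per the labels' protocols.

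Counts were fitted with edgeR 4.0.16 in R 4.3.3: TMM factors, filterByExpr (minimum count 10, minimum total 15), 1 mean per group, robust glmQLFit, glmQLFTest and Benjamini-Hochberg adjustment over 17290 genes at 0.05. The common biological coefficient of variation was 15.4%. The procedure was tested on simulated data. Those data held no GC trend and no library that stood apart, so the test does not cover these features. Alternatives were other scalings, DESeq2 1.42.0, limma 3.58.1 on the deposited normalized signal (log2 with a pseudocount of 1), other filters, only the groups compared, a replicate block, GC and length offsets from GENCODE 29 (17282 genes) and each library left out. Offsets for the pathway lists were added after the data were seen. Members, lists and tests were chosen with earlier results of these data known. Named were the 10 members, from each list up to 3 called genes of smallest p in each comparison with DMSO and those against the list's direction, and 6 genes nearest to NQO1 and to the target median. 1 gene named by this rule is not reported here. Promoter windows came from RefSeq, GRCh38.p14. Intervals and depth cover counting and library spread only.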

Additional observations from a re-analysis of the deposited data

Results flagged for a closer look

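For 8 genes the effect of PNKP1i in the presence of TH10785 differed from its effect in the absence of TH10785, by the interaction term of edgeR's quasi-likelihood test, in which 30.6% of all genes tested were called. On the log2 scale the effect with TH10785 minus the effect without it was 1.05 for GCLC, 1.02 for TXNRD1, 0.93 for NFE2L2 and 0.62 for GCLM. It was -0.80 for TRIM16, -0.73 for NQO1, -0.68 for TRIM16L and -0.64 for KEAP1. The direction of GCLM and the calls of GCLM and KEAP1 did not hold with the GC and length offsets.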

How the results depend on the processing

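With 3 libraries a group, PNKP1i against DMSO was the comparison whose member calls depended most on the processing. The 3 calls, beside 34 genes in all, became 5 with no low-count filter (189 genes in all) and 6 with only the groups compared (1144). They became 5 with the GC and length offsets (90 genes in all) and 0 to 6 when a library was left out (6 to 297). The 8 calls of the interaction, beside 5289 genes in all, became 5 to 8 when a library was left out (3489 to 6159).

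Some changes turned sign. For TH10785 against DMSO, KEAP1 was at 0.00 with RLE scaling and DESeq2, 0.02 with no filter and 0.01 with only the groups compared, TRIM16 at 0.01, 0.01, 0.02 and 0.01 there and 0.00 with upper-quartile scaling, and GCLM at 0.01 with the offsets. With the offsets GCLM was at -0.36 and OSGIN1 at 0.04 for both compounds against PNKP1i, and at -0.37 and 0.39 in the interaction. Leaving out a library gave, for TH10785 against DMSO, NFE2L2 -0.08 to 0.30, KEAP1 -0.17 to 0.12, TXNRD1 -0.09 to 0.20, TRIM16 -0.16 to 0.14, TRIM16L -0.21 to 0.10, SRXN1 -0.01 to 0.16 and GCLC -0.30 to 0.03. It gave NFE2L2 -0.13 to 0.08 for PNKP1i against DMSO and -0.33 to 0.03 for PNKP1i against TH10785, TRIM16 -0.01 to 0.28 for both compounds against TH10785, and in the interaction SRXN1 -0.05 to 0.12 and OSGIN1 -0.22 to 0.06. The cause was not tested. Over the other settings of the 70 single member results, 1349 values kept direction and side of the threshold, 47 turned direction, 40 lost a call and 24 gained one.

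Over all genes, TH10785 against DMSO called 97 genes, 315 with DESeq2, 513 with no filter, 289 with the offsets and 43 to 180 when a library was left out. PNKP1i against DMSO called 34, 116, 189, 90 and 6 to 297 in the same order, and 1144 with only the groups compared, 577 higher and 567 lower, beside 30 higher and 4 lower. PNKP1i against TH10785 called 156, 243, 299, 259 and 66 to 552. The interaction called 5289, and 3194 with the offsets, of which 1286 were higher and 1908 lower, beside 2855 and 2434, and as few as 3489 when a library was left out.

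Replicate numbers did not pair the libraries: deviations from group means correlated at -0.33 to 0.19 between libraries of the same number (median -0.07, 18 pairs), and 1 of 12 libraries correlated best with its own number. With a replicate block 62 genes were called for TH10785 and 15 for PNKP1i against DMSO, and member counts were 0, 3, 6, 7, 9, 4 and 8 as without it. HMOX1 and FTL were not called for PNKP1i against DMSO with the block.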

Other observations

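Within libraries the ratio of TRIM16L to TRIM16 CPM stayed between 2.20 and 2.63 in all 12 libraries while the level of each gene differed between groups. The ratio of GCLC to GCLM CPM was 1.36, 1.36 and 1.50 with both compounds, 0.832 to 1.27 with TH10785 and 0.973 to 1.24 with PNKP1i, against 0.929 to 1.24 in DMSO. Its values with both compounds were the highest 3 of the 12, and GC content differs between the 2 genes, at 44.3% and 37.3%. With both compounds over DMSO, GCLC changed by 1.14 and GCLM by 0.76 without the GC and length offsets. With the offsets they changed by 0.93 and 0.13, so their changes lay further apart. The part of GC content in the ratio was not tested.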
